A study of Mus musculus with 8 samples.

Results

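The elastic fibre and microfibril genes were examined in mouse cells with and without the receptor LRP1. They were 10 genes listed by name: Eln, Fbn1, Fbn2, Fbln1, Fbln2, Fbln5, Mfap2, Mfap4, Mfap5 and Emilin1. All 10 were among the 22520 genes of the deposited table, and 9 of them were among the 11389 genes tested, since Fbn2 stayed below the limit of 1 FPKM in all 8 libraries. FPKM is the number of sequenced fragments divided by transcript length and by all mapped fragments of the library. It takes length into account and so allows genes to be set side by side.

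RNA had been sequenced from 4 wild-type (WT) and 4 LRP1 knockout (LRP1 KO) libraries. By the labels, each library was a mix of heart, liver and lung cells of the C57BL/6 strain at postnatal day 14, and the series calls them microvascular endothelial cells. LRP1 is a large endocytic receptor of the LDL receptor family that takes up proteases, matrix proteins and lipoproteins, and the comparison asks which transcripts differ in cells that lack it. By the study's description of its mouse model, LRP1 KO mice were LRP1 f/f; Cdh5-CreER+/- and their WT littermates were LRP1 f/f; Cdh5-CreER-/-, so both groups carried the floxed allele and only LRP1 KO mice carried the tamoxifen-inducible Cre recombinase, which the endothelial Cdh5 promoter drives. Effects of Cre or its activation therefore cannot be told apart from those of the deletion. The study selected such cells with beads against PECAM-1. The labels do not say that the libraries of a group came from separate animals, so p-values measure only the spread between these samples, which may be technical.

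Elastic fibres let arteries, lung and skin stretch and recoil. A core of cross-linked elastin lies on a scaffold of microfibrils, which are threads of fibrillin with associated glycoproteins, and fibulins and emilin help to bring elastin to that scaffold. Microfibrils also hold latent TGF-beta in the matrix through the LTBP proteins, and in most tissues fibroblasts and smooth muscle cells make the bulk of these proteins.

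The deposited values were quantile normalized, so depth is unknown and precision is judged from the 4 libraries of a group. Lrp1 was at 103 to 140 FPKM (WT) or 2.79 to 7.72 FPKM (LRP1 KO), so the targeted transcript matched the WT and LRP1 KO labels in all 8 libraries. The defining endothelial markers were present but low in WT, where the adhesion receptor Pecam1 was at 6.80 to 8.76 FPKM and the cadherin Cdh5 at 8.87 to 11.2 FPKM (both singled out as the selection antigen and the Cre driver, after their values were seen). The summed level of 18 endothelial markers was 187 to 205 FPKM in WT. In the same libraries 14 fibroblast markers summed to 2523 to 3675 FPKM and 8 mesothelial markers to 2403 to 2755 FPKM, so the label of endothelial cells was not matched by the most abundant marker lists. Lrp1 in LRP1 KO was nevertheless at 3.99% of its WT mean, and which cell types had lost it was not tested. LRP1 KO library 4 stood apart from the other 3 of its group: on the first principal component it lay at 0.102, against 17.2 to 27.3 for those 3 and -24.1 to -12.9 for WT. Values without it are given for the genes, counts and correlations in which it differed most from the rest of its group.

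Among the 9 tested genes, Fbln2 rose and Mfap2 fell in LRP1 KO. Fbln2, the most abundant of the 10, was 1.57-fold higher in LRP1 KO (758 ± 93.8 FPKM against 482 ± 58.2 FPKM, SD, n = 4). Mfap2 was at 41.6% of its WT mean (11.5 ± 8.61 FPKM against 27.7 ± 7.36 FPKM, SD, n = 4). Elastin itself, Fbn1, Fbln5, Mfap5 and Emilin1 had estimates between -0.31 and 0.10 on the log2 scale and did not pass the test, and Fbln1 and Mfap4 had low means in LRP1 KO but 1 high library each and did not pass it either. With 2 of 9 past an adjusted p of 0.05, the share was read against 13.6% of all tested genes, and this difference in share was not tested. For the single directions, 1 of 9 was higher where 6.27% of all tested genes were, and 1 of 9 was lower where 7.31% were. Mfap2 alone also passed the 2-fold limit, which 1.62% of tested genes did. Fbln2 alone had groups that did not overlap, which was seen in 19.6% of tested genes. The median estimate of the 9 genes was -0.30, beside -0.01 over all tested genes, with 3 estimates above 0 and 6 below.

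**Figure D1:**
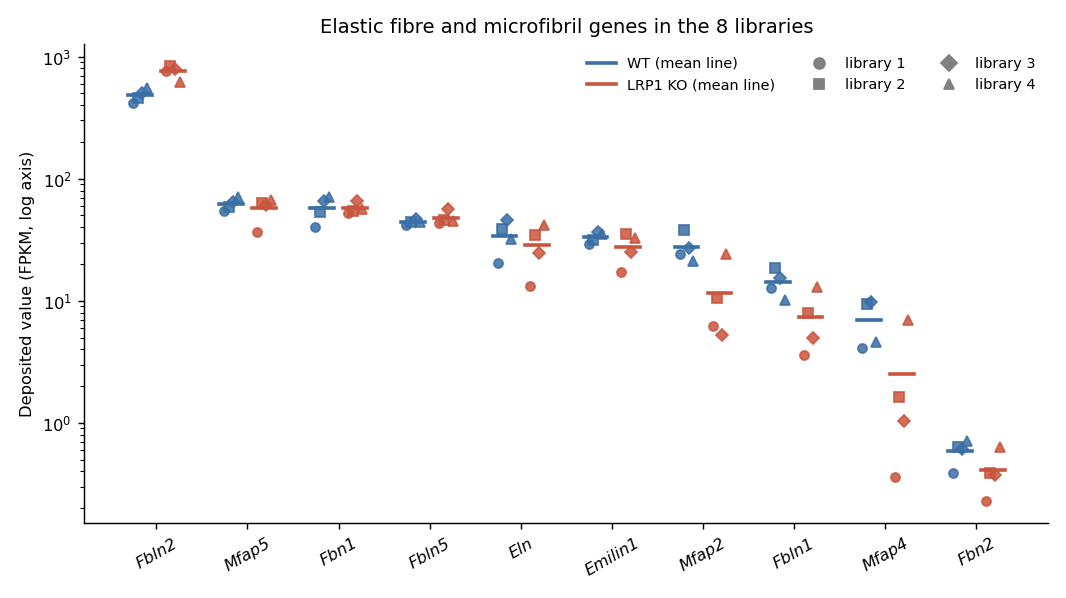
Deposited values of the 10 genes in FPKM on a log axis, ordered by their WT mean, with a marker shape for each library number and a line at each group mean. Fbln2 is the only gene whose LRP1 KO libraries all lie above its WT libraries, and in Mfap2, Fbln1 and Mfap4 the triangle of LRP1 KO library 4 lies within the WT range.

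RefSeq promoter windows (GRCm38.p6, 250 bases before to 50 after a transcription start) were matched for 6 of the 10 genes, and 4 of the windows are shown because their genes rose (Fbln2), fell (Mfap2), had a low mean in LRP1 KO (Fbln1) or had group means that differed by less than their SD (Fbn1). Mfap2 and Fbln1 have a pair of annotated starts each, and the downstream one is printed. Each is written 5′ to 3′ on the strand of the gene, and capitals mark matches to GGGCGG or its reverse complement, the GC box. The windows are chr6:91212514-91212813 (plus strand) for Fbln2, chr4:141010431-141010730 (plus strand) for Mfap2, chr15:85205758-85206057 (plus strand) for Fbln1 and chr2:125506389-125506688 (minus strand) for Fbn1.
Fbln2: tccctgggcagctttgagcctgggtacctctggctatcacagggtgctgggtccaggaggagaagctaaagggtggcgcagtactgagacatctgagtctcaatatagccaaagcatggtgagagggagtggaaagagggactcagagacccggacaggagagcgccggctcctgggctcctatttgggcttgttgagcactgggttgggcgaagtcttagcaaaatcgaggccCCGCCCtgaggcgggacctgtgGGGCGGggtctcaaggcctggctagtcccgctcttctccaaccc
Mfap2: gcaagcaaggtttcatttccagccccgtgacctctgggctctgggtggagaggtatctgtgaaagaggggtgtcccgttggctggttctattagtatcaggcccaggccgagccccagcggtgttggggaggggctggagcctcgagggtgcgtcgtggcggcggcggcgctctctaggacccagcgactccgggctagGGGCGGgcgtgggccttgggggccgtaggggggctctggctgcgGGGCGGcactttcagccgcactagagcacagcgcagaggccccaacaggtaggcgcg
Fbln1: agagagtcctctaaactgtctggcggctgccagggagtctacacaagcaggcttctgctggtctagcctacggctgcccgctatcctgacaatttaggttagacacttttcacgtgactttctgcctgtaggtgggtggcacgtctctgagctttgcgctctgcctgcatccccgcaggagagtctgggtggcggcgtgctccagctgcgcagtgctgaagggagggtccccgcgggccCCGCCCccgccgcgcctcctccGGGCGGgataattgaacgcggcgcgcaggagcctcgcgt
Fbn1: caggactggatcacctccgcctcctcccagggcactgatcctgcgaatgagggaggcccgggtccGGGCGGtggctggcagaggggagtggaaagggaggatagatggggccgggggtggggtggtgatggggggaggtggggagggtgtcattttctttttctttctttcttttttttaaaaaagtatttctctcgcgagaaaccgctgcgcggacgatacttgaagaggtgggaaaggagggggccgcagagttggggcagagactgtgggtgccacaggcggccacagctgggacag

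The Fbln2 window held GC boxes 16 bases upstream and 6 bases downstream of the start. The Mfap2 window held them 51 and 7 bases upstream, the Fbln1 window 11 bases upstream and 11 bases downstream, and the Fbn1 window 185 bases upstream. A GC box occurs in 35.7% of all 32851 promoter windows of this length, so the match is common. The windows at the upstream starts of Mfap2 and Fbln1 and that of Emilin1 held 0 of them, and the upstream one of 2 Fbln5 windows held them 221 and 48 bases upstream. The 4 printed windows, of Fbln2, Mfap2 (downstream start), Fbln1 (downstream start) and Fbn1, held no match to the TATA box letters TATAAA, the AP-1 site TGANTCA, the TEAD site GGAATG, the palindromic SMAD site GTCTAGAC or the box CCAAT on either strand, which occur in 13.6%, 7.81%, 14.7%, 0.213% and 37.4% of all windows. Among the windows not printed, the one at the upstream start of Mfap2 held a TEAD match 176 bases and a CCAAT match 105 bases before that start, the upstream Fbln5 window a CCAAT match 150 bases before its start and the Emilin1 window a CCAAT match 40 bases after its start. The printed windows had a GC content of 60.3% in Fbln2 and Fbn1, 64.0% in Fbln1 and 68.0% in Mfap2, where the median over all windows was 52.7%. Eln, Mfap4, Mfap5 and Fbn2 had no entry.

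Elastin is the protein that gives the fibre its recoil. Eln (ENSMUSG00000029675, chromosome 5 from 134702593 to 134747323, minus strand, GRCm38) had values of 20.5, 38.4, 45.7 and 31.9 FPKM in the WT libraries (1 to 4 in order, here and for the other genes) against 13.3, 34.4, 24.5 and 42.0 FPKM in the LRP1 KO libraries. The groups overlapped, and library 1 was the lowest of both. The estimate was -0.31 (SE 0.34, 95% interval -1.07 to 0.46, limma adjusted p 0.559), so a 2-fold decrease was just within the interval and a 2-fold increase was not.

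The fibrillins form the microfibril thread. Fbn1 (chromosome 2, 125300594 to 125507993, minus strand) encodes the main fibrillin after birth and had WT values of 40.0, 53.0, 66.0 and 71.5 FPKM against LRP1 KO values of 52.6, 54.7, 65.3 and 56.5 FPKM. Its 4 LRP1 KO libraries lay inside the WT range, and the group means of 57.6 ± 14.1 and 57.3 ± 5.60 FPKM (SD, n = 4) gave an estimate of 0.02 (SE 0.16, 95% interval -0.34 to 0.39, limma adjusted p 0.943). Fbn2 (chromosome 18, 58008623 to 58210487, minus strand), the fibrillin that dominates before birth, had WT values of 0.387, 0.634, 0.616 and 0.708 FPKM against LRP1 KO values of 0.228, 0.391, 0.376 and 0.635 FPKM. Every value was under 1 FPKM and the groups overlapped (exact two-sided permutation p = 0.229).

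The microfibril-associated glycoproteins sit on the fibrillin thread. Mfap2 (ENSMUSG00000060572, chromosome 4, 141010418 to 141015984, plus strand) encodes MAGP-1, which binds fibrillin and TGF-beta, and its promoter is printed above. It had WT values of 24.4, 38.1, 27.0 and 21.2 FPKM against LRP1 KO values of 6.17, 10.6, 5.29 and 23.9 FPKM. LRP1 KO libraries 1 to 3 were each below every WT library, whereas library 4 lay inside the WT range. The estimate was -1.39 (SE 0.39, 95% interval -2.27 to -0.51, limma adjusted p 0.0459). By exact permutation (two-sided) p was 0.0571, and no p under 0.0286 can be reached with 8 libraries. The call was close to the threshold: without LRP1 KO library 4 the estimate was -1.80 (limma adjusted p 0.00150), and without any 1 of the other 7 libraries the adjusted p passed 0.05, up to 0.127.

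Mfap5 (chromosome 6, 122505845 to 122529290, plus strand) encodes MAGP-2, the relative of MAGP-1. It had WT values of 54.3, 58.5, 64.3 and 70.9 FPKM against LRP1 KO values of 36.6, 63.7, 60.7 and 67.4 FPKM, where library 1 was the low one and the other 3 lay in the WT range. The estimate was -0.15 (SE 0.18, 95% interval -0.55 to 0.25, limma adjusted p 0.591). Set against its relative, the ratio of Mfap2 to Mfap5 was 0.455 on average in WT and 0.194 in LRP1 KO, with overlapping groups (exact permutation p = 0.0571, a ratio chosen after the values were seen, as were the other ratios given here).

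Mfap4 (chromosome 11, 61485431 to 61488900, plus strand) encodes a fibrinogen-domain glycoprotein that binds fibrillin and tropoelastin. Its WT values were 4.08, 9.49, 9.84 and 4.61 FPKM and its LRP1 KO values 0.362, 1.63, 1.04 and 7.001 FPKM. In LRP1 KO, libraries 1 to 3 lay below all WT libraries and library 4 in the middle of them, so the group SD of 3.04 FPKM exceeded its mean of 2.51 FPKM. The estimate was -1.45 (SE 0.50, 95% interval -2.57 to -0.32, limma adjusted p 0.0808), with an exact permutation p of 0.0857. Without LRP1 KO library 4 it was -1.96 (limma adjusted p 0.00375).

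The fibulins link elastin, fibrillin and the cell surface. Fbln2 (ENSMUSG00000064080, chromosome 6, 91212455 to 91272540, plus strand) encodes fibulin-2, a basement membrane and vessel wall protein that binds fibrillin and elastin. It had WT values of 416, 458, 500.4 and 552 FPKM against LRP1 KO values of 768, 842, 796 and 625 FPKM. The groups did not overlap, and library 4 of LRP1 KO was the one nearest to WT. The estimate was 0.65 (SE 0.11, 95% interval 0.40 to 0.90, limma adjusted p 0.00957), the exact permutation p was 0.0286, and without LRP1 KO library 4 the estimate was 0.74 (limma adjusted p 0.00129). By its group mean, Fbln2 was the 172nd most abundant gene of the table in WT and the 93rd in LRP1 KO. It kept its call in 15 of 18 alternative analyses, and lost it with a covariate for the fibroblast (estimate 0.63, limma adjusted p 0.0974), macrophage (0.69, adjusted p 0.242) or endothelial (0.50, adjusted p 0.198) marker level.

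Fbln1 (chromosome 15, 85205949 to 85286535, plus strand) encodes fibulin-1, which is found in elastic fibres and blood. It had WT values of 12.7, 18.6, 15.3 and 10.2 FPKM against LRP1 KO values of 3.58, 7.89, 4.94 and 12.95 FPKM. As for Mfap2 and Mfap4, LRP1 KO libraries 1 to 3 were below every WT library and library 4 was not. The mean in LRP1 KO was 51.7% of that in WT, with an estimate of -0.96 (SE 0.32, 95% interval -1.68 to -0.25, limma adjusted p 0.0713, exact permutation p 0.0857), which became -1.26 without LRP1 KO library 4 (limma adjusted p 0.00731).

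Fbln5 (chromosome 12, 101746565 to 101819055, minus strand) encodes fibulin-5, which carries tropoelastin to the microfibril and binds integrins. It had WT values of 41.7, 44.3, 47.2 and 44.1 FPKM against LRP1 KO values of 43.6, 45.7, 56.2 and 45.3 FPKM. The spread within WT was the smallest of the 10 genes relative to the mean, and the groups overlapped. The estimate of 0.10 (SE 0.08, 95% interval -0.09 to 0.28, limma adjusted p 0.432) had an interval that lay inside the 2-fold limit. Relative to Fbln2, Fbln5 had a ratio of 0.0928 in WT and of 0.0635 in LRP1 KO, and the groups of that ratio did not overlap (exact permutation p = 0.0286).

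Emilin1 (chromosome 5, 30913402 to 30921277, plus strand) encodes a glycoprotein found between the elastin core and the microfibrils. It had WT values of 29.0, 31.7, 36.8 and 35.0 FPKM against LRP1 KO values of 17.2, 35.4, 25.0 and 32.7 FPKM. Libraries 1 and 3 of LRP1 KO lay below the WT range and the other 2 inside it. The estimate was -0.30 (SE 0.20, 95% interval -0.74 to 0.14, limma adjusted p 0.306).

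For Eln, Fbn1, Fbn2 and Mfap4, exons overlap those of a gene on the opposite strand (Gm30003, Gm9913, Gm26507 and Mapk7), and no use of strand is stated for the counting, so reads from the pair could not be told apart. No stretch of 50 bases in the longest coding transcript of any of the 10 genes occurred in a transcript of another gene.

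**Figure D2:**
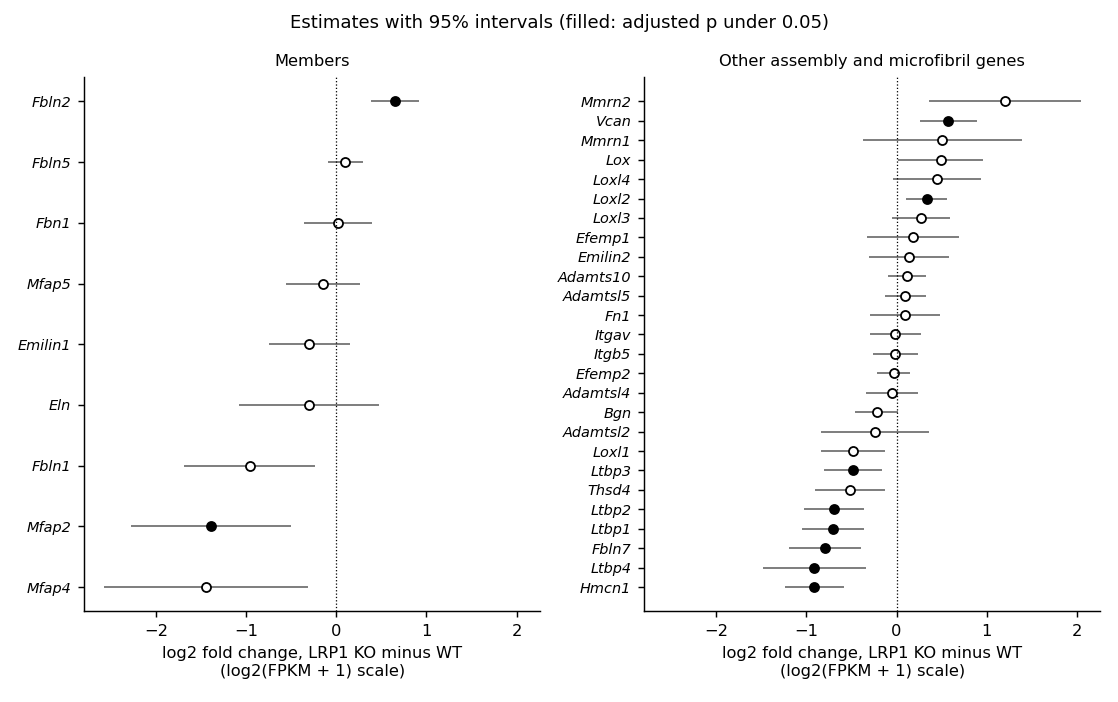
Estimated log2 fold change (LRP1 KO minus WT, on the log2(FPKM + 1) scale) with its 95% interval for the 9 tested genes (left) and for 26 other genes of elastic fibre assembly and microfibrils (right), with filled points for an adjusted p under 0.05 (Fbln7 included, which met the filter through WT alone). Fbln2 at 0.65 has the narrowest interval away from 0 on the left, and the intervals of Mfap2, Fbln1 and Mfap4 are the wide ones below 0.

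Ordered by level, Fbln2 was far above the rest in both groups and Fbn2 was at the bottom. In WT the order was Fbln2, Mfap5, Fbn1, Fbln5, Eln, Emilin1, Mfap2, Fbln1, Mfap4 and Fbn2. The ranges of Fbln2 and Mfap5 did not overlap, nor did those of Mfap2 and Fbln1, of Fbln1 and Mfap4, or of Mfap4 and Fbn2. From Mfap5 down to Mfap2, each gene's range overlapped that of its neighbour, so their order was not set apart by the spread. In LRP1 KO, Fbn1 and Mfap5 changed places, with overlapping ranges, and the rest of the order was the same. Fbln5 then stood clear of Eln, while all neighbours from Eln down to Fbn2 overlapped.

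The 10 genes together gave 643 to 842 FPKM in WT and 913 to 1096 FPKM in LRP1 KO. Fbln2 made up most of that sum, with 63.2% ± 2.27 (SD, n = 4) in WT and 75.8% ± 5.46 (SD, n = 4) in LRP1 KO. Without Fbln2 the sum was 281 ± 37.2 FPKM (WT) and 240 ± 48.2 FPKM (LRP1 KO; SD, n = 4), with overlapping libraries. The sum was higher in LRP1 KO only with Fbln2 in it.

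Some pairs of the genes varied together within the groups. After each group mean was subtracted, Fbln1 had a Pearson correlation over the 8 libraries of 0.94 with both Mfap2 and Mfap4, and Mfap2 and Mfap4 had one of 0.91. Mfap5 and Emilin1 (0.92) and Eln and Emilin1 (0.90) were close as well, and Eln was also near Mfap4 (0.86) and Fbln1 (0.82), so these genes did not fall into separate sets. Fbln2 was negative with the first 3, with -0.62 for Mfap2, -0.54 for Fbln1 and -0.48 for Mfap4. Of 36 pairs of tested genes, 8 had a correlation of at least 0.8 and 8 had one under 0, beside 3.72% and 49.9% of all pairs among the 11389 tested genes (this difference was not tested). Without LRP1 KO library 4, the negative values of Fbln2 were near 0 or above it (-0.071 for Mfap2, -0.048 for Fbln1 and 0.24 for Mfap4), and Mfap2 and Mfap4 had a correlation of 0.69. Over those 7 libraries Fbln1 had one of 0.88 with Mfap2 and of 0.86 with Mfap4, Mfap5 and Emilin1 had one of 0.90 and Eln and Emilin1 one of 0.88. Eln and Mfap4 were then the closest of the 36 pairs (0.90), and 6 pairs reached 0.8 and 5 were under 0, beside 5.25% and 49.9% of all pairs. All points come from the same 8 libraries, with the same cell mixtures and normalization, and the low libraries of Eln, Emilin1 and Mfap5 were library 1 of each group while the high LRP1 KO library of Mfap2, Fbln1 and Mfap4 was library 4.

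**Figure D3:**
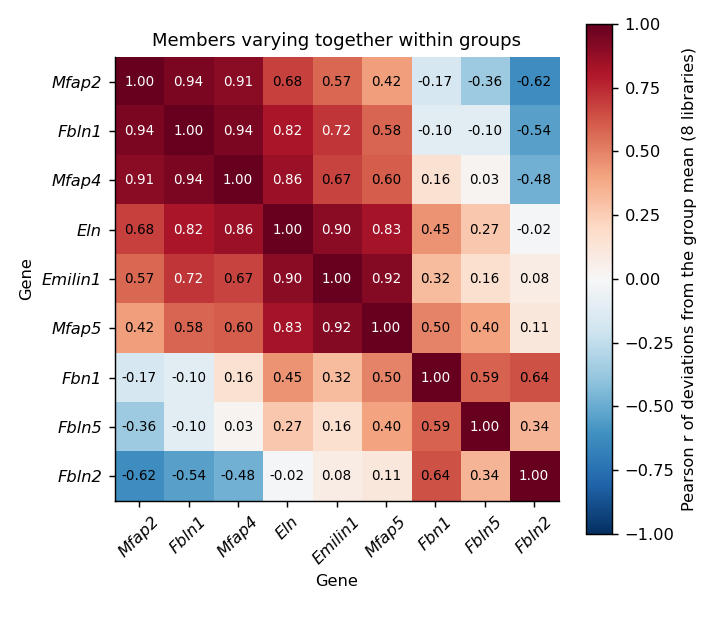
Pearson correlation between the 9 tested genes of log2(FPKM + 1) after subtraction of each group mean, over 8 libraries, on a colour scale from -1 to 1. Mfap2, Fbln1 and Mfap4 form a block of 0.91 to 0.94 in the upper left, and Fbln2 is negative with each of them, which without LRP1 KO library 4 held only as -0.071 and -0.048 for Mfap2 and Fbln1.

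The genes of the whole table whose pattern was most like each member's were named by the same measure. Fbln1 was closest to Tmem176b, Fxyd1 and Podn (0.99 each), the last encoding podocan, a small proteoglycan of the matrix. Mfap2 was closest to Ptplb, Cyp39a1 and Bend5 (0.99 each), and Mfap4 to Trak1 (0.99), Ccpg1 (0.99) and Tmed10 (0.99). Eln was closest to Ksr1, Pdzrn3 and Htra3 (0.99 each) and Fbn1 to Adnp (0.99), Svil (0.99) and Fn1, the fibronectin gene (0.99). Fbln2 had no gene as near, with 0.96 for Fads3, 0.96 for Usp16 and 0.95 for 5330426P16Rik. Fbln5 was closest to Plxdc2 (0.97), Mfap5 to Gsn (0.98), which encodes the actin-severing gelsolin, and Emilin1 to Rpn2 (0.97). These are the highest correlations over all tested genes for 8 libraries and are given as a description.

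The proteins that assemble, cross-link and anchor the fibre were followed with a list of 28 other genes, of which 26 were tested. Of these 26, 1 (Fbln7) was carried past the limit of 1 FPKM by its WT libraries alone and is left out of the count. Of the other 25, 7 passed an adjusted p of 0.05, 2 higher and 5 lower, where 13.6% of all tested genes did (the difference was not tested). The median estimate of the 26 was -0.01, the same as over all tested genes. All 4 LTBP genes, whose products bind latent TGF-beta or fibrillin microfibrils, fell. Ltbp1 was at 22.5 to 34.3 FPKM (WT) or 13.8 to 20.4 FPKM (LRP1 KO), with no overlap, and fell by 0.70 on the log2 scale (SE 0.15, limma adjusted p 0.0198). Ltbp2 was at 24.2 to 30.7 and 14.1 to 23.4 FPKM and also fell by 0.70 without overlap (limma adjusted p 0.0176). The other two overlapped between groups. Ltbp3 had an estimate of -0.48 (limma adjusted p 0.0489, and 0.0542 after median ratio scaling of the libraries), and Ltbp4, whose product assists fibulin-5 in elastin assembly, one of -0.91 (limma adjusted p 0.0415). In both of these, LRP1 KO library 4 was within the WT range (63.7 FPKM for Ltbp3 and 29.5 FPKM for Ltbp4), and without it the estimates were -0.62 (limma adjusted p 0.00205) and -1.19 (limma adjusted p 0.000608).

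Hmcn1, which encodes hemicentin-1, a distant relative of the fibulins, also fell. It had a mean of 10.5 ± 1.75 FPKM (WT) and 5.12 ± 1.001 FPKM (LRP1 KO; SD, n = 4) and an estimate of -0.92 (SE 0.14, limma adjusted p 0.00600). Its groups did not overlap. Fbln7, another relative, was low in both groups, at 1.58 ± 0.518 FPKM (WT) and 0.489 ± 0.275 FPKM (LRP1 KO; SD, n = 4). Since it met the filter only through WT, where it was higher, its selection was not independent of the difference, and no call is read from its estimate of -0.79 (with no filter on any gene the limma adjusted p was 0.0429). Vcan, the proteoglycan versican that binds fibrillin, rose from 6.91 ± 1.37 to 10.7 ± 1.58 FPKM (SD, n = 4; 0.58, limma adjusted p 0.0283), and Loxl2, a lysyl oxidase that cross-links elastin and collagen, from 117 ± 16.0 to 147 ± 9.37 FPKM (SD, n = 4; 0.33, limma adjusted p 0.0489).

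Lox, the main cross-linking enzyme, was at 533 ± 165 FPKM (WT) and 728 ± 116 FPKM (LRP1 KO; SD, n = 4) and did not pass the test (0.49, limma adjusted p 0.133). The emilin relatives Mmrn2 (1.20, limma adjusted p 0.0596) and Mmrn1 (0.51, limma adjusted p 0.381) and the microfibril-binding Thsd4 (-0.52, limma adjusted p 0.0680) did not pass either. Mmrn2 and Thsd4 passed without LRP1 KO library 4 (1.62, limma adjusted p 0.000789, and -0.63, limma adjusted p 0.0183) and with library weights (limma adjusted p 0.00876 and 0.0103). Mmrn2 is itself an endothelial marker, and was at 1.41 to 1.72 FPKM in WT, at 5.02 to 9.95 FPKM in LRP1 KO libraries 1 to 3 and at 1.46 FPKM in library 4. The other 14 genes ranged from -0.48 (Loxl1) to 0.45 (Loxl4). Of the 7 calls, that of Hmcn1 was kept whichever library was left out, and the other 6 were lost for 3 (Ltbp1) to 7 (Ltbp3, Ltbp4) of the 8 libraries. Without LRP1 KO library 4 the list had 12 genes past the threshold, Fbln7 among them, where 26.2% of all genes then tested passed. With a covariate for the fibroblast, macrophage or endothelial marker level it had 0, where 211, 7 and 166 of all 11389 tested genes passed. Hmcn1 then had estimates of -0.85, -1.44 and -0.77, Vcan of 0.62, 0.82 and 0.60 and Loxl2 of 0.32, 0.32 and 0.24. Ltbp1 had -0.52, -0.79 and -0.50, Ltbp2 -0.40, -1.20 and -0.33, Ltbp3 -0.22, -1.12 and -0.12, and Ltbp4 -0.45, -1.92 and -0.27.

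Enzymes that degrade elastin or serve its receptor complex were counted from a list of 12 genes, of which 9 were tested, with 2 higher, 1 lower and a median of -0.15 (6.27% of all tested genes were higher and 7.31% lower). Mmp12, the macrophage elastase, was at 1.92 ± 0.859 FPKM (WT) and 12.8 ± 5.08 FPKM (LRP1 KO; SD, n = 4; 2.19, limma adjusted p 0.00524), and Ctss, the elastolytic cathepsin S, at 5.98 ± 1.35 and 46.5 ± 15.2 FPKM (SD, n = 4; 2.73, limma adjusted p 0.000449). Ctsa, the protective cathepsin of the elastin receptor complex, fell by 0.36 (limma adjusted p 0.0281), a call lost in 6 of the 8 analyses without 1 library. These 3 were picked out after their values were seen, and Ctss is also in the macrophage list. The most abundant gene of the list, Ctsl, was at 984 ± 158 FPKM (WT) and 999.6 ± 41.4 FPKM (LRP1 KO; SD, n = 4; limma adjusted p 0.842). Of 12 genes known to respond to TGF-beta, the growth factor that microfibrils store, 8 were higher and 0 lower at an adjusted p of 0.05 in limma, with a median of 0.49 beside -0.01 over all tested genes. Among them Acta2, the smooth muscle actin gene, rose from 360.4 ± 39.0 to 711 ± 175 FPKM (SD, n = 4). The most abundant gene of that list, Col1a2, was at 882 ± 108 FPKM (WT) and 736 ± 158 FPKM (LRP1 KO; SD, n = 4). Its estimate (-0.28, limma adjusted p 0.221) and those of Tgfbi (-0.25, limma adjusted p 0.322) and Col1a1 (-0.09, limma adjusted p 0.695) were below 0 and did not pass. Of the list, 4 genes are also in the smooth muscle (mural) or fibroblast marker lists. Without LRP1 KO library 4 the list of elastolytic genes had 2 higher and 5 lower, and that of TGF-beta responses 8 higher and 1 lower, where 12.3% of all genes then tested were higher and 13.9% lower. With the macrophage covariate Mmp12 had an estimate of 2.04 (limma adjusted p 0.237) and Ctss one of 1.096 in place of 2.73 (limma adjusted p 0.106). Ctss is itself among the genes averaged in that covariate, so nothing is read from its smaller estimate or its lost call. The estimates of Ctsa (-0.67, limma adjusted p 0.132) and Acta2 (1.73 in place of 0.95, limma adjusted p 0.106) were larger in size. These 4 genes did not pass with that covariate. With the fibroblast and endothelial covariates Ctss kept its call (3.17 and 3.08), and the other 3 lost theirs. Acta2 then had estimates of 0.61 and 0.48 (limma adjusted p 0.137 and 0.141), Mmp12 of 2.01 and 1.51 (limma adjusted p 0.0654 and 0.0950) and Ctsa of -0.23 and -0.25 (limma adjusted p 0.305 and 0.469).

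Marker levels differed between the libraries as well. The counts of markers that follow stand beside 6.27% of all tested genes higher and 7.31% lower, or 12.3% and 13.9% without LRP1 KO library 4, and no difference from these shares was tested. The summed fibroblast markers were at 2523 to 3675 FPKM (WT) or 2063 to 3262 FPKM (LRP1 KO), where library 4 had the highest value, as it did for Mfap2, Fbln1 and Mfap4. Of 13 tested fibroblast markers, 3 were lower and 0 higher, and the most abundant, the collagen and proteoglycan genes Col1a2, Dcn, Col3a1 and Col1a1, did not pass. The 3 lower ones, named after their values were seen, were Dpt (-2.01, limma adjusted p 0.0330), Pdgfra (-0.96, limma adjusted p 0.0367) and Thy1 (-0.52, limma adjusted p 0.0297), which encode dermatopontin, a PDGF receptor and a surface glycoprotein. Without LRP1 KO library 4 there were 6 lower. The 8 mesothelial markers summed to 2403 to 2755 FPKM in WT and 2054 to 2337 FPKM in LRP1 KO, with 2 lower (Msln and Upk3b), and 5 lower without LRP1 KO library 4. The mural markers, led by Acta2 and Tagln, went from 774 to 962 FPKM in WT to 1172 to 1790 FPKM in LRP1 KO, with 6 of 9 tested genes higher (Cspg4, with 1 group mean under 1 FPKM, is not counted), and LRP1 KO library 4 had the lowest value of its group, as it did for Fbln2. Among the tested mural markers only Pdgfrb had an estimate below 0 (-0.31, limma adjusted p 0.221). The mural markers Rgs5, Kcnj8 and Abcc9 had means under 1 FPKM in both groups and were not tested.

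The summed endothelial markers were at 425 to 695 FPKM in LRP1 KO libraries 1 to 3 and at 193 FPKM in library 4, inside the WT range of 187 to 205 FPKM. All 17 tested endothelial markers had estimates above 0, and 1 of them, Eng, passed the test, whereas 15 passed without library 4. The macrophage markers, led by Lyz2, summed to 93.3 to 120 FPKM in WT and 258 to 619 FPKM in LRP1 KO, with 8 of 10 tested genes higher. Another 2, Emr1 and Mrc1, had WT means under 1 FPKM, met the filter through LRP1 KO alone and are not counted. They are part of the macrophage covariate. Leukocyte markers summed to 0.665 to 1.64 FPKM (WT) or 2.24 to 5.13 FPKM (LRP1 KO), which did not overlap, and the 1 marker tested, the neutrophil gene S100a8, had means of 0.813 ± 0.528 FPKM (WT) and 2.52 ± 1.09 FPKM (LRP1 KO; SD, n = 4) and met the filter through LRP1 KO, so no call is read from it. The other leukocyte markers were under the limit for testing, with Cd3e, Nkg7 and S100a9 among those listed at 0 throughout. Of the 8 stellate cell markers 3 were tested, and Hand2, a transcription factor gene also named after its values were seen, was higher (5.32 ± 0.483 to 12.1 ± 3.70 FPKM, SD, n = 4; 1.01, limma adjusted p 0.0112) without overlap. The other 5 were under 1 FPKM in WT, as were 6 of the 8 cartilage and bone markers. In such bulk samples fewer cells of a type and less RNA per cell cannot be told apart. The part of cell content in the results for Fbln2 and Mfap2 was not tested. The covariate analyses cannot decide it, since the mean log2 level of the macrophage markers did not overlap between WT (1.98 to 2.54) and LRP1 KO (3.46 to 4.65). With the fibroblast, macrophage and endothelial covariates 211, 7 and 166 of all 11389 tested genes passed, and neither Fbln2 nor Mfap2 was among them. The estimate of Mfap2, -1.39 without a covariate, was then -0.63, -3.58 and -0.40 (limma adjusted p 0.454, 0.0961 and 0.715). That of Fbln2, 0.65 without one, was 0.63, 0.69 and 0.50.

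**Figure D4:**
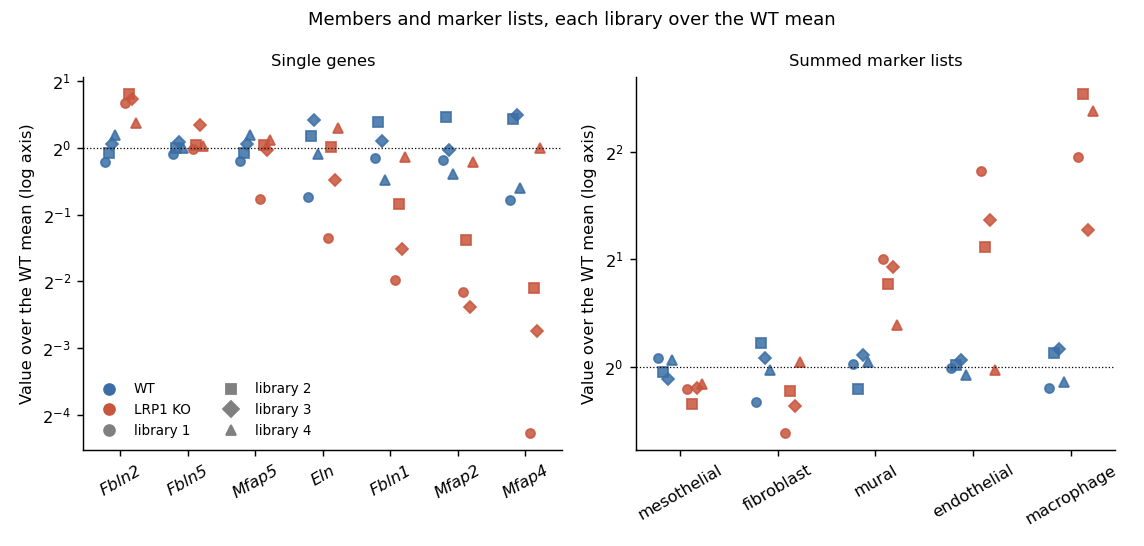
Each library's value over the WT mean on a log axis, for 7 of the genes (left) and for 5 summed marker lists (right), with a marker shape for each library number. LRP1 KO library 4 lies with the WT libraries for Mfap2, Fbln1 and Mfap4 and for the fibroblast and endothelial sums, and with the other LRP1 KO libraries for the macrophage sum.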

How the data were processed

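RNA sequencing values were used from 8 libraries, 4 WT and 4 LRP1 KO, grouped by the sample titles. The authors deposited 1 table of normalized values without a unit in its header. The unit was taken to be FPKM, inferred because the submitters' processing notes name TopHat2, Cufflinks and mm10. The study's methods instead describe trimGalore, STAR, featureCounts with GENCODE and a count-based package, and separate preparations of liver and of heart and lung cells, whereas the labels call each library a mixture. The deposited FPKM columns share 1 highest value and nearly the same sum (503571 to 504112), so they were quantile normalized; how is not given in the sources used here. Depth is therefore unknown, counting error could not be given, and any shift of most genes one way would not show. Because the values were not counts, count-based tests were not run.

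Expression was analysed as log2(FPKM + 1), a scale that understates changes of low genes. Genes with at least 1 FPKM in at least 4 libraries were tested with limma 3.58.1 in R 4.3.3 (group as the only term, variance trend, Benjamini-Hochberg over 11389 genes). A call was an adjusted p under 0.05, and the 2-fold limit a log2 fold change of 1 or more in size. The test was run on simulated tables first. For single values all 70 choices of 4 from 8 libraries were enumerated (exact permutation test, two-sided). Alternatives were a pseudocount of 0.1, other filters, median ratio scaling, 1 prior variance, library weights, a replicate block, covariates for marker levels (mean log2 level of a list) and leaving out each library. Named were all 10 genes, Lrp1, assembly genes past the adjusted p and the 4 largest changes not past it, up to 4 most abundant genes of other lists and the 3 genes closest to each member by correlation. The members and lists were chosen with earlier results of these data known. Positions came from GENCODE M21 (GRCm38, the assembly of mm10), which matched 21740 of 22520 genes, and promoters from RefSeq (GRCm38.p6). Some genes that this naming covers are not reported here.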

Additional observations from a re-analysis of the deposited data

Results flagged for a closer look

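Single libraries stood far from the other 3 of their group in 5 of 56 groups checked (28 genes), where chance gives about 1 in 20. Fbln5 was at 56.2 FPKM in LRP1 KO library 3, against 43.6 to 45.7 FPKM in the others. Ltbp4 was at 39.7 FPKM in WT library 2, against 28.0 to 29.7 FPKM, and at 29.5 FPKM in LRP1 KO library 4, against 12.2 to 14.6 FPKM. Loxl2 was at 132.9 FPKM in LRP1 KO library 4, against 150.3 to 152.8 FPKM. Ctsa was at 377 FPKM in LRP1 KO library 4, against 324 to 329.9 FPKM.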

How the results depend on the processing

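Of the 10 genes, Fbln2 kept its direction under all 18 alternatives and its call under 15, and Mfap2 kept its direction under all 18 and its call under 5. The number of the 10 genes past the adjusted p, 2 in the report, was 1 with no filter on low values and 1 with one prior variance, 4 with library weights, and 0 with the fibroblast, macrophage or endothelial covariate. Leaving out 1 library gave 1 to 4, and 4 only without LRP1 KO library 4, where Fbln1 and Mfap4 passed as well. The assembly list, with 8 (Fbln7 included here and below), had 4 with no filter and 0 with each of the 3 covariates (estimates are given with the list above). It had 1 to 12 when 1 library was left out (12 without LRP1 KO library 4 and at most 4 otherwise). Over all genes the count of 1547 became 3003 with library weights, 211, 7 and 166 with the fibroblast, macrophage and endothelial covariates, and 433 to 2959 when 1 library was left out (at most 989 with LRP1 KO library 4 kept).

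With a replicate block, the count over all genes was 1013 and that of the 10 genes 1, and the assembly list had 6. Lox (adjusted p 0.0437) and Thsd4 (0.0274) then passed, and Mfap2 (0.0649), Ltbp3 (0.0648), Ltbp4 (0.0623), Vcan (0.0617) and Loxl2 (0.0823) did not. Whether equal numbers mark paired samples is not stated, and the values did not settle it. Deviations of same-numbered libraries correlated by 0.16, 0.14, 0.34 and -0.31, and 2 of 4 WT libraries correlated best with their own number.

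Estimates turned direction for 5 genes, none of them past the threshold. Eln was 0.57 with the fibroblast and 0.43 with the endothelial covariate, and -0.53 to 0.0029 when 1 library was left out. Fbn1 was -0.10 with library weights, -0.046 with the macrophage covariate, and -0.14 to 0.13 with 1 library left out. Mfap5 was 0.26 and 0.24 with the fibroblast and endothelial covariates, and -0.24 to 0.049 with 1 library left out. Emilin1 was 0.16 and 0.12, and Mmrn1 -0.17 and -0.52, with the same 2 covariates. The causes were not tested. Over 27 genes and 18 alternatives, 351 of 482 values kept direction and call, 106 lost and 10 gained a call, and 15 turned; Fbln7 could not be tested in 4 of them.

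Each covariate takes a degree of freedom from 8 libraries, and the marker levels themselves moved with the groups. The planned count-based tool was not run, since the table holds no counts. Quantile normalization hides depth, and Fbn2, under 1 FPKM in every library, was not among the 11389 tested genes.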
